A study of Mus musculus with 16 samples.

Results

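The genes described here are 10 effectors and regulators at the output end of the Hippo pathway, read from RNA-seq of the tibialis anterior, the muscle that lifts the foot. They are the coactivator genes Yap1 and Wwtr1 (the gene of TAZ), the 4 TEAD transcription factor genes Tead1, Tead2, Tead3 and Tead4, the TEAD cofactor genes Vgll2 and Vgll3, the junction protein gene Amotl2 and the scaffold gene Nedd9. Members were taken as the rows of the count table whose Ensembl identifier carries 1 of these symbols in the GENCODE annotation of GRCm38, which gave 10 of 29730 genes. All 10 were among the 14960 genes that passed the filter on low counts. The set follows the pathway, but it and the gene lists used below were assembled with results of these samples known, so calls among them are not independent support. Wwtr1 and Nedd9 are taken as selected on their values, in the contrast of knockout with wild-type mice that both received the oligonucleotide. They are described with no test in any comparison, and counts of calls here cover the other 8 members.

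The 16 samples came from male mice aged 7 weeks, with the strain given as C57BL/6N, in 4 groups of 4. WT_PBS and WT_ASO were wild-type animals that received PBS, the saline vehicle, or ASO1. KO_PBS and KO_ASO were Bin1mck-/- animals that received the same. Bin1mck-/- mice are knockouts of Bin1, which encodes the membrane-bending protein amphiphysin 2 and whose transcript was reduced but still counted here, and are used as a model of recessive centronuclear myopathy. ASO1 is an antisense oligonucleotide, a synthetic strand that binds a matching RNA and reduces it, here directed at Dnm2, the gene of the membrane-cutting GTPase dynamin 2. The sources used here do not give the deleted part of Bin1, what drives the deletion, or the dose and schedule of ASO1. The design asks how the Bin1 knockout changed muscle transcripts and what lowering Dnm2 did to them in either genotype.

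The Hippo pathway is a chain of kinases that ends on the coactivators YAP and TAZ. When the kinases MST and LATS are active, YAP and TAZ are phosphorylated and kept in the cytoplasm. Otherwise they enter the nucleus, bind a TEAD factor on DNA and switch on genes of growth, matrix and cytoskeleton. VGLL proteins bind the same TEAD factors in competition with YAP and TAZ, and angiomotins such as AMOTL2 hold YAP and TAZ at junctions and are themselves induced by them. NEDD9 is a scaffold of the Cas family that links integrins and focal adhesion kinases to cell movement. In muscle, YAP and TEAD1 are known in fibres and in satellite cells, and TEAD4 is known as a target of the myogenic factors during differentiation.

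The samples held 27591900 to 40862854 counts, and levels are in CPM, counts relative to library size after TMM scaling. The targeted genes followed their labels. Bin1 lay at 463 to 554 CPM in WT_PBS, 479 to 619.8 CPM in WT_ASO, 40.8 to 47.7 CPM in KO_PBS and 31.7 to 42.9 CPM in KO_ASO. Dnm2 lay at 50.2 to 62.8 CPM in WT_PBS, 59.1 to 67.7 CPM in KO_PBS, 23.1 to 29.4 CPM in WT_ASO and 20.7 to 31.1 CPM in KO_ASO. In edgeR's quasi-likelihood test over 14960 genes, 1878 differed between KO_PBS and WT_PBS at an adjusted P value under 0.05, 1112 higher and 766 lower. In fits that left out 1 sample the count ran from 997 without KO_PBS replicate 1 to 2137 without KO_ASO replicate 4. Scaling by library totals alone moved the median of all genes in that comparison from -0.01 to 0.14 on the log2 scale and the split to 1942 higher and 260 lower, so each log2 fold change (log2FC) here is relative to the TMM scale.

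The promoters of the coactivator genes, of Amotl2 and of Vgll3 are shown because each holds the core of the M-CAT element, the sequence that TEAD factors bind. RefSeq entries on GRCm38.p6 were found for 8 of the 10 members, all but Tead1 and Tead4. The 250 bases upstream of each start site were searched for CATTCC and, for the other strand, GGAATG, and 5 of the 8 genes held it. These were Wwtr1, Yap1, Amotl2, Vgll3 and Tead3, while the Tead2, Vgll2 and Nedd9 entries did not hold these letters. The Nedd9 entry, chr13:41359002-41359251, lies inside the annotated gene, which begins at 41487362 on the minus strand. The bases upstream of that point were not searched. The same letters occurred in 12.6% of all 32851 promoter entries and in any entry of 14.4% of 27025 genes. Among the genes used below as known outputs of YAP and TAZ, 15 of 22 had an entry and 6 of these held the motif. A match is a match of letters and not a measured binding site. The upstream sequences read 5′ to 3′ on the strand of the gene, with the motif in capitals, and Ankrd1 is added as an output gene described below.
Wwtr1, chr3:57575911-57576160, - strand: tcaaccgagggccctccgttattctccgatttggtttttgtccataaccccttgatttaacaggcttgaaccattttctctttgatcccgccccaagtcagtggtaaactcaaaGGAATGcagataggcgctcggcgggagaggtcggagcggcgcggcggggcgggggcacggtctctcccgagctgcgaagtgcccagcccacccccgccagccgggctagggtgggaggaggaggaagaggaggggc
Yap1, chr9:8004597-8004846, - strand: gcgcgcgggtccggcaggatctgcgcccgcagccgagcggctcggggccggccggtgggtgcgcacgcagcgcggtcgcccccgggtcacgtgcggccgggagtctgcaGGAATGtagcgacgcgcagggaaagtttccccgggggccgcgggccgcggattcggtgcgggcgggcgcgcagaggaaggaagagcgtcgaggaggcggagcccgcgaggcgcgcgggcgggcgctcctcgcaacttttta
Amotl2, chr9:102717554-102717803, + strand: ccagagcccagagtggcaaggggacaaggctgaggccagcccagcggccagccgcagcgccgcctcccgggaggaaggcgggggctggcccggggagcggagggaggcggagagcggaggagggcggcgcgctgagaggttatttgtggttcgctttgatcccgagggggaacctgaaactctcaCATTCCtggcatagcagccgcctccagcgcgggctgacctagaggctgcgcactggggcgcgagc
Vgll3, chr16:65814939-65815188, + strand: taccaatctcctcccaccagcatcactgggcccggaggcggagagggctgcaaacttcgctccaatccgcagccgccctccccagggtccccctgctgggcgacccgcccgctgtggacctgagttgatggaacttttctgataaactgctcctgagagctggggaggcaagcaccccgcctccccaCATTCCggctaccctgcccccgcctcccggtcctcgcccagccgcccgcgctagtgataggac
Ankrd1, chr19:36119845-36120094, - strand: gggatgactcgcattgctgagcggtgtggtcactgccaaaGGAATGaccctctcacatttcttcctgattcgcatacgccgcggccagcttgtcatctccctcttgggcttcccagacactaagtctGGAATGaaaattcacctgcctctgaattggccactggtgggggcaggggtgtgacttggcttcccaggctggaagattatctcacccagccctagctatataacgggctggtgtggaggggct
Counted to the motif's leading base, the match lay 136 bases upstream of the Wwtr1 start, 141 bases upstream of the Yap1 start, 65 bases upstream of the Amotl2 start and 63 bases upstream of the Vgll3 start. In the Ankrd1 promoter the matches lay 210 and 123 bases upstream. Wwtr1, Yap1 and Ankrd1 carried the motif in the orientation of the other strand. Other entries exist for Wwtr1, where the same match lay 170 bases from a different start, and for Tead3, where the match lay 182 bases upstream in 1 entry and 123 and 114 bases upstream in another, while the other Tead3 entry did not hold these letters.

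Per kilobase of exon, Tead1 and Vgll2 were the most abundant members in untreated wild-type muscle, and Tead2 and Vgll3 the least. In WT_PBS, Tead1 stood at 18.6 ± 2.17 CPM per kilobase (SD, n = 4) and Vgll2 at 16.1 ± 3.49 CPM per kilobase (SD, n = 4), with overlapping samples. Yap1 followed at 7.82 ± 0.775 and Wwtr1 at 7.21 ± 0.530 CPM per kilobase (SD, n = 4), again overlapping. The coactivator transcripts were thus close to each other and below the leading TEAD. Amotl2 at 2.12 ± 0.440, Tead4 at 2.04 ± 0.657, Tead3 at 1.56 ± 0.213 and Nedd9 at 1.28 ± 0.135 CPM per kilobase (SD, n = 4) formed a run in which each overlapped the next. Vgll3 at 0.566 ± 0.186 and Tead2 at 0.558 ± 0.202 CPM per kilobase (SD, n = 4) overlapped each other. No sample of a higher step overlapped the next step between Vgll2 and Yap1, between Wwtr1 and Amotl2 and between Nedd9 and Vgll3. Counts behind the members ran from 55 for Tead2 in its lowest sample to 10101 for Tead1 in its highest, so Tead2 and Vgll3, with 100 to 269 counts, were the least precisely measured.

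**Figure D1:**
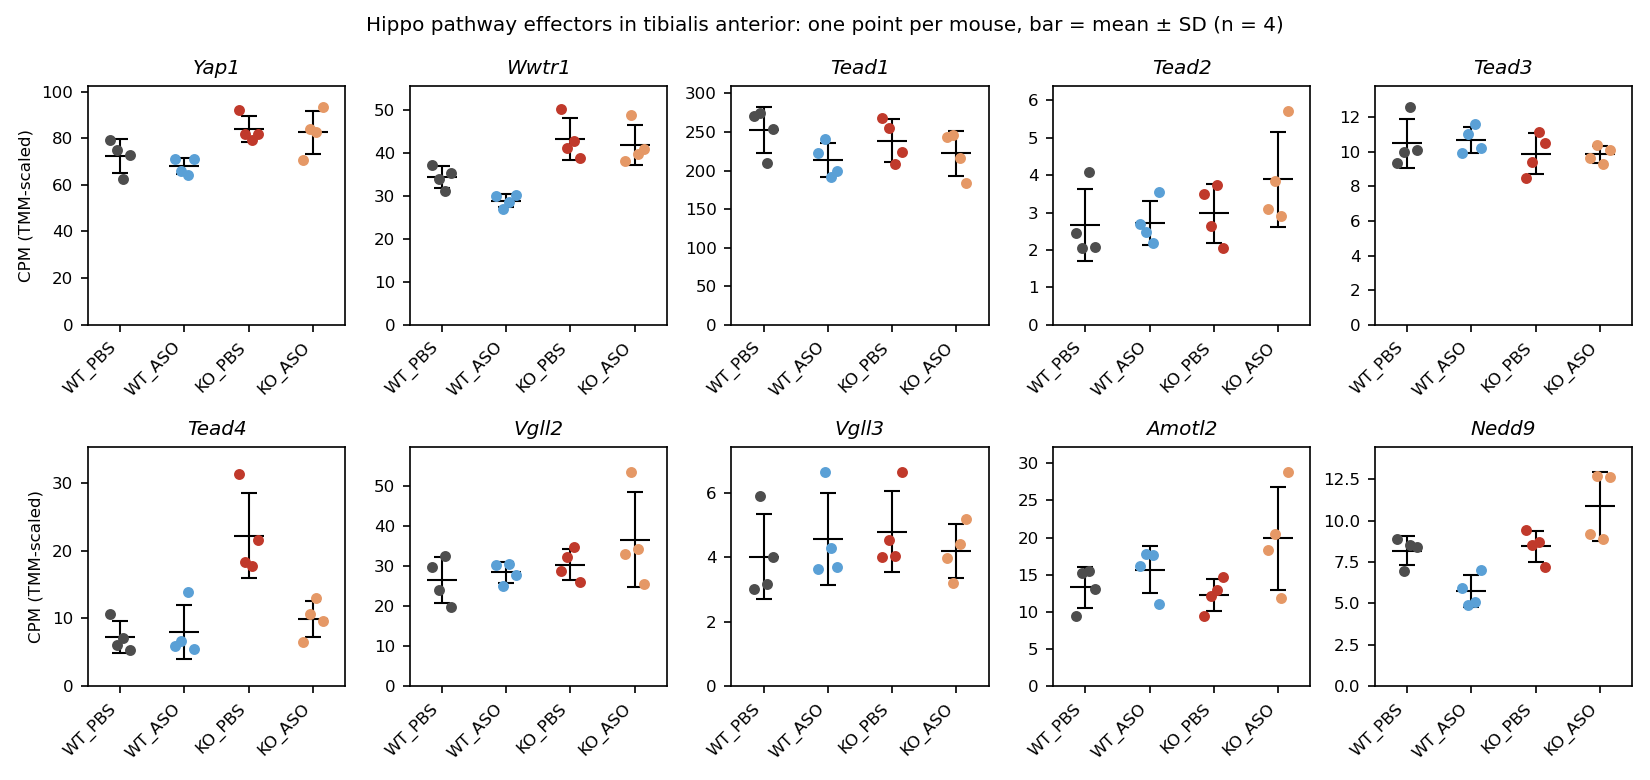
Level of each of the 10 genes in CPM on the TMM scale, 1 point per sample, with the group mean and SD as a bar (n = 4 per group). Tead4 stands apart in KO_PBS, where all 4 points lie at 17.7 to 31.2 CPM, and Nedd9 is lowest in WT_ASO, where all 4 points lie at 4.89 to 7.00 CPM.

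Of the coactivators, Wwtr1 (ENSMUSG00000027803, GRCm38 chr3:57455649-57575910, minus strand) encodes TAZ. Its level was 37.2, 34.1, 31.1 and 35.4 CPM in WT_PBS and 29.9, 26.9, 28.6 and 30.3 CPM in WT_ASO. It was 50.4, 41.3, 42.9 and 39.0 CPM in KO_PBS and 38.3, 48.8, 39.8 and 41.0 CPM in KO_ASO. All 8 Bin1mck-/- samples lay above all 8 wild-type samples, and the WT_ASO samples lay below the WT_PBS samples without overlap. The group means were 34.5 ± 2.53 in WT_PBS, 28.9 ± 1.53 in WT_ASO, 43.4 ± 4.93 in KO_PBS and 42.0 ± 4.71 CPM in KO_ASO (SD, n = 4). The log2FC of KO_PBS against WT_PBS was 0.33 (SE 0.09) and that of KO_ASO against WT_ASO 0.54 (SE 0.09). The log2FC of WT_ASO against WT_PBS was -0.25 (SE 0.09) and that of KO_ASO against KO_PBS -0.05 (SE 0.09). With library totals alone the knockout differences were 0.48 and 0.64. These values describe Wwtr1 and carry no test.

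Yap1 (ENSMUSG00000053110, GRCm38 chr9:7931999-8004596, minus strand) encodes the other coactivator. It stood at 79.3, 75.1, 62.4 and 72.6 CPM in WT_PBS and at 92.1, 81.9, 79.4 and 82.0 CPM in KO_PBS. The KO_PBS samples lay just above the WT_PBS samples, with 79.4 CPM as the lowest of the former and 79.3 CPM as the highest of the latter. The log2FC was 0.21 (SE 0.09, 95% interval 0.02 to 0.41), which did not pass in edgeR's test (adjusted P = 0.140). With library totals alone it was 0.36 and passed (adjusted P = 0.0343). In WT_ASO the Yap1 level was 71.1, 66.1, 64.3 and 71.2 CPM, and in KO_ASO 70.5, 83.8, 82.5 and 93.3 CPM. ASO1 left Yap1 within the spread of samples in both genotypes, with a log2FC of -0.09 in wild type (SE 0.09, edgeR adjusted P = 0.921) and -0.02 in the knockout (SE 0.09, edgeR adjusted P = 0.936, 95% interval -0.22 to 0.17). Across the 16 samples the log2 CPM of Yap1 and Wwtr1 had a Pearson correlation of 0.852, and 0.637 after the group means were taken out. Wwtr1 ranked 15 among all genes by this measure for Yap1. All points share libraries and depth, and the correlation is given as a description.

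Among the TEAD genes, Tead4 was the member with the widest change, and the other 3 stayed within the spread of samples. Tead4 (ENSMUSG00000030353, GRCm38 chr6:128224288-128300823, minus strand) stood at 10.7, 6.07, 7.16 and 5.39 CPM in WT_PBS and at 31.2, 18.3, 17.7 and 21.6 CPM in KO_PBS. All 4 KO_PBS samples exceeded all WT_PBS samples. The means were 7.33 ± 2.36 and 22.2 ± 6.26 CPM (SD, n = 4), a 3.03-fold rise, or 1.60 on the log2 scale (SE 0.31, 95% interval 0.94 to 2.25, edgeR adjusted P = 0.0036). The rise passed in each of the 16 fits that left out 1 sample, with log2FC from 1.39 to 1.84. In this comparison 7.43% of all genes tested were called higher and 12.6% were called in either direction.

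After ASO1 the Tead4 level in the knockout was 6.52, 10.6, 12.98 and 9.65 CPM, below all KO_PBS samples, with a mean of 9.94 ± 2.68 CPM (SD, n = 4). Against KO_PBS it fell to 0.447 of the level, or -1.16 on the log2 scale (SE 0.30, 95% interval -1.81 to -0.51, edgeR adjusted P = 0.0477), in a comparison where 2.83% of genes were called lower and 3.64% in either direction. Both comparisons use the same 4 KO_PBS samples. KO_ASO overlapped WT_PBS, with a log2FC of 0.44 (SE 0.31, 95% interval -0.22 to 1.09, edgeR adjusted P = 0.771). In WT_ASO Tead4 stood at 5.92, 6.74, 13.8 and 5.53 CPM, which gave a log2FC of 0.13 against WT_PBS (SE 0.31, edgeR adjusted P = 0.982). The effect of ASO1 in the knockout minus that in wild type was -1.29 on the log2 scale (SE 0.43), and this difference did not pass in edgeR (adjusted P = 0.211). The fall under ASO1 was at the edge of the threshold. It passed in 4 of the 16 fits that left out 1 sample (without WT_PBS replicate 1, WT_ASO replicates 3 or 4, or KO_PBS replicate 3), and its adjusted P values ran from 0.0161 without WT_ASO replicate 3 to 0.161 without KO_PBS replicate 1, with log2FC from -1.32 to -0.96. It was also lost without the filter on low counts (log2FC -1.17, edgeR adjusted P = 0.139). With the replicate number as a block the fall did not pass either (log2FC -1.17, edgeR adjusted P = 0.0503).

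In whole muscle, fewer cells of a type and less RNA per cell cannot be told apart, and other cell types moved with the same groups. The summed level of 8 macrophage markers was 27.4 to 48.5 CPM in WT_PBS, 77.1 to 187 CPM in KO_PBS, 31.7 to 54.8 CPM in KO_ASO and 32.0 to 62.2 CPM in WT_ASO. Of these markers 7 of 8 were called higher in KO_PBS against WT_PBS and 5 of 8 lower in KO_ASO against KO_PBS. Of the 6 satellite cell markers, which include Pax7 and Myf5, 5 were called lower and 1, Sdc4, higher in KO_PBS against WT_PBS, and the 5 summed to 9.07 to 11.5 CPM in KO_PBS against 18.3 to 26.3 CPM in WT_PBS. Sdc4, also expressed by other cells, held the larger share of the list in KO_PBS at 26.5 to 38.9 CPM, so the sum of all 6 overlapped, at 35.6 to 50.4 CPM in KO_PBS and 39.1 to 48.3 CPM in WT_PBS. The part of these cell types in the Tead4 values was not tested. The myofibre markers, among them Ckm and Acta1, summed to 101578 to 208845 CPM over all samples, so the defining markers of the labelled tissue were present, and 0 markers of any list were at 0 in a sample.

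Tead1 (ENSMUSG00000055320, chr7:112679318-112906807), the most abundant TEAD gene here, ranged from 184 to 275 CPM over the 16 samples. Its log2FC was -0.08 in KO_PBS against WT_PBS (SE 0.12, edgeR adjusted P = 0.711), -0.10 in KO_ASO against KO_PBS (SE 0.12, adjusted P = 0.733) and -0.24 in WT_ASO against WT_PBS (SE 0.12, adjusted P = 0.789). Tead3 (ENSMUSG00000002249, chr17:28331671-28350817) lay at 8.46 to 12.6 CPM over all samples. Its knockout log2FC of -0.09 had a 95% interval of -0.32 to 0.15 (edgeR adjusted P = 0.666). With library totals alone the small knockout differences of Tead1 and Tead3 turned to 0.07 each, so their direction is not settled. Tead2 (ENSMUSG00000030796, chr7:45215753-45233644), the TEAD best known from embryos, lay at 2.05 to 5.71 CPM, with the top value in KO_ASO replicate 4. Its log2FC was 0.15 in KO_PBS against WT_PBS (edgeR adjusted P = 0.769) and 0.38 in KO_ASO against KO_PBS (edgeR adjusted P = 0.510, 95% interval -0.19 to 0.95). Tead1 and Tead2 overlap 2310014F06Rik and Cd37 on the opposite strand, and whether the counting used the strand is not known here.

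The VGLL cofactor genes did not pass in any comparison. Vgll2 (ENSMUSG00000049641, chr10:52022502-52028471), whose product is a muscle-enriched partner of TEAD, stood at 26.6 ± 5.75 in WT_PBS, 28.5 ± 2.55 in WT_ASO, 30.4 ± 3.88 in KO_PBS and 36.7 ± 11.9 CPM in KO_ASO (SD, n = 4). The KO_ASO mean was raised by replicate 2 at 53.6 CPM, the other 3 samples lying at 25.6 to 34.4 CPM. The log2FC was 0.20 in KO_PBS against WT_PBS (SE 0.19, edgeR adjusted P = 0.555) and 0.27 in KO_ASO against KO_PBS (SE 0.19, edgeR adjusted P = 0.512). Vgll3 (ENSMUSG00000091243, chr16:65815257-65866368) lay at 3.01 to 6.65 CPM over all samples. Its log2FC was 0.26 in KO_PBS against WT_PBS (SE 0.25, 95% interval -0.26 to 0.79, edgeR adjusted P = 0.539) and -0.20 in KO_ASO against KO_PBS (edgeR adjusted P = 0.756).

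Amotl2 (ENSMUSG00000032531, chr9:102716672-102733418), the junction protein that restrains YAP and TAZ, had its highest mean in KO_ASO. It stood at 9.51, 15.2, 15.5 and 13.1 CPM in WT_PBS and at 9.43, 12.2, 12.97 and 14.7 CPM in KO_PBS, which overlapped fully (log2FC -0.11, SE 0.23, edgeR adjusted P = 0.80). The KO_ASO values were 18.3, 20.5, 11.9 and 28.8 CPM, with replicate 3 inside the range of KO_PBS and the other 3 above it. The WT_ASO values were 16.2, 17.8, 17.7 and 11.1 CPM. In KO_ASO against KO_PBS the log2FC was 0.69 (SE 0.23, 95% interval 0.20 to 1.18) and did not pass in edgeR (adjusted P = 0.119). Without KO_ASO replicate 3 it was 0.87 and passed (edgeR adjusted P = 0.0483).

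Nedd9 (ENSMUSG00000021365, GRCm38 chr13:41309581-41487362, minus strand), the Cas family scaffold, was lowest in WT_ASO and highest in KO_ASO. Its level was 8.89, 6.93, 8.51 and 8.40 CPM in WT_PBS and 5.96, 4.89, 5.10 and 7.00 CPM in WT_ASO. It was 9.40, 8.50, 8.70 and 7.17 CPM in KO_PBS and 9.21, 12.7, 8.89 and 12.6 CPM in KO_ASO. All KO_ASO samples exceeded all WT_ASO samples. The lowest KO_ASO sample lay just above the highest WT_PBS sample, both at 8.89 CPM after rounding, and KO_PBS overlapped WT_PBS. The log2FC of KO_ASO against WT_ASO was 0.92 (SE 0.15), a 1.89-fold difference. It was 0.36 in KO_ASO against KO_PBS (SE 0.15), -0.51 in WT_ASO against WT_PBS (SE 0.15) and 0.04 in KO_PBS against WT_PBS (SE 0.15). The difference between the effects of ASO1 in the 2 genotypes was 0.87 (SE 0.21). These values describe Nedd9 and carry no test. The summed level of 7 endothelial markers was 255 to 443 CPM in WT_ASO and 432 to 469 CPM in KO_ASO, and the log2FC of the 7 ran from 0.04 to 0.70 in that comparison with a median of 0.34. By edgeR 0 of the 7 were called and 2 had an unadjusted P under 0.05. The summed level of 6 pericyte and smooth muscle markers was 640 to 774 CPM in WT_PBS and 433 to 637 CPM in WT_ASO. It was 489 to 687 CPM in KO_PBS and 617 to 697 CPM in KO_ASO. In WT_ASO against WT_PBS the log2FC of the 6 ran from -0.39 to -0.28. There edgeR called 0 of the 6, and 5 had an unadjusted P under 0.05, beside 6.45% of all genes. The part of endothelial, pericyte and smooth muscle cells in the Nedd9 and Wwtr1 values was not tested.

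**Figure D2:**
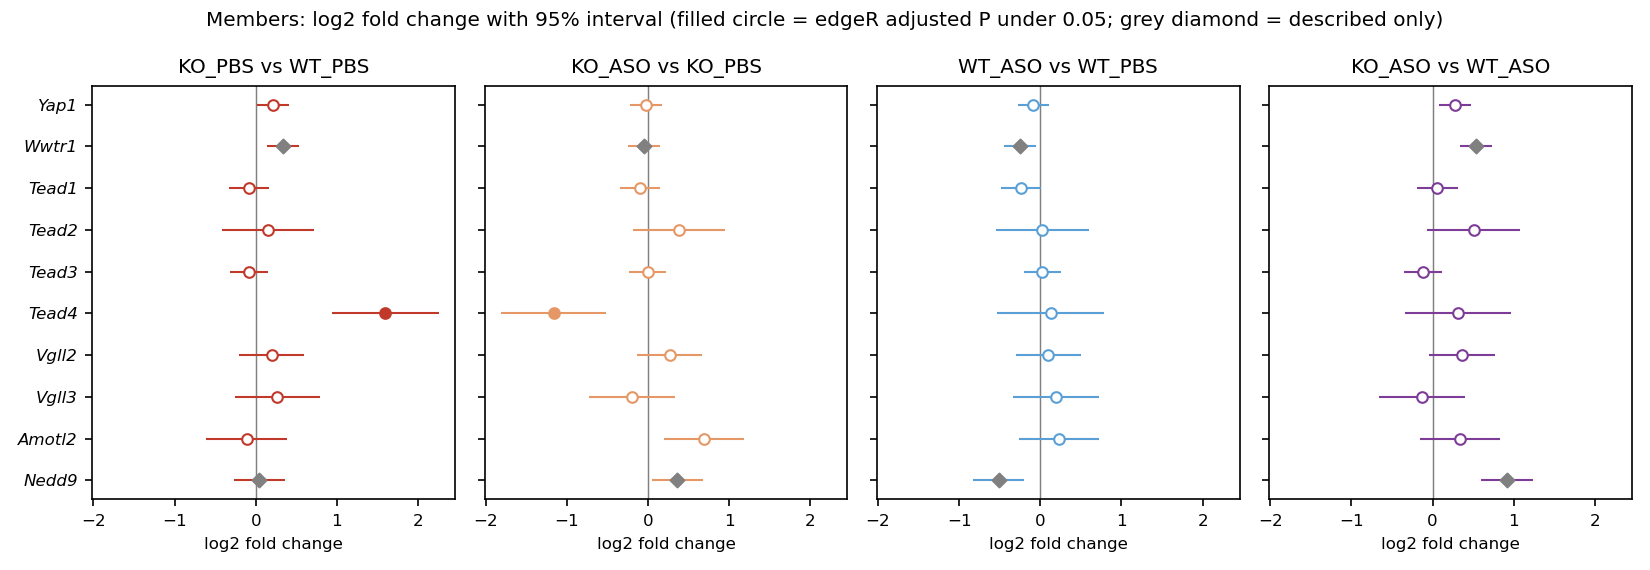
log2FC (x axis) of the 10 genes (y axis) in 4 comparisons, with 95% intervals, filled circles for edgeR adjusted P under 0.05 over all genes, open circles for the rest, and grey diamonds for Wwtr1 and Nedd9, which are described with no test. The intervals of the grey diamonds do not allow for the selection of these genes. Tead4 is the only filled circle, at 1.60 in KO_PBS against WT_PBS and at -1.16 in KO_ASO against KO_PBS.

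Set side by side, the 8 members other than Wwtr1 and Nedd9 had a median log2FC of 0.17 in KO_PBS against WT_PBS, where the median of all genes was -0.01. Of these 8, 1 was called (Tead4), beside 12.6% of all genes, and 2 (Yap1 and Tead4) had an unadjusted P under 0.05 (27.3% of all genes). The samples of the groups did not overlap for 2 of the 8, Yap1 and Tead4, beside 20.4% of all genes. In KO_ASO against KO_PBS the median was -0.01, 1 of the 8 was called, Tead4, beside 3.64% of all genes, and 2 (Tead4 and Amotl2) had an unadjusted P under 0.05 (17.7% of all genes). Of the 8, Tead4 alone had groups apart, beside 10.4% of all genes. In WT_ASO against WT_PBS the median was 0.06 and 0 of the 8 were called by edgeR, DESeq2 or limma, 0 had an unadjusted P under 0.05 (6.45% of all genes), and 0.00668% of all genes were called. The groups were apart for 0 of the 8, beside 3.22% of all genes. In KO_ASO against WT_PBS the median was 0.31, 0 of the 8 were called by edgeR, DESeq2 or limma, beside 0.0401% of all genes, and 2 (Amotl2 and Vgll2) had an unadjusted P under 0.05 (8.22% of all genes). The groups were apart for 0 of the 8, beside 5.39% of all genes. In KO_ASO against WT_ASO the median was 0.29, 0 of the 8 were called by edgeR, DESeq2 or limma, beside 0.0735% of all genes, and 1 (Yap1) had an unadjusted P under 0.05 (15.1% of all genes). The groups were apart for 0 of the 8, beside 6.97% of all genes. Yap1 had a log2FC of 0.28 there (edgeR adjusted P = 0.187), and Tead1, Tead2, Tead3, Tead4, Vgll2, Vgll3 and Amotl2 ran from -0.13 for Vgll3 to 0.51 for Tead2, with adjusted P values of 0.378 to 0.848. The difference between the effects of ASO1 in knockout and wild type gave 0 calls among the 8 by edgeR, DESeq2 or limma, beside 0.575% of all genes, with Tead4 at an unadjusted P under 0.05 (12.7% of all genes).

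Known outputs of YAP and TAZ rose more often than they fell in the untreated knockout. Of a list of 22 such genes, which includes Amotl2, 21 were tested (all but Foxf2), and in KO_PBS against WT_PBS 6 were called higher and 0 lower, beside 7.43% and 5.12% of all genes. The median of the list was 0.12, against -0.01 for all genes, and the list was drawn up with results of these samples known. Ankrd1, a stress-responsive protein of the sarcomere, stood at 10.2, 13.4, 19.8 and 18.3 CPM in WT_PBS and at 87.9, 38.3, 35.8 and 134 CPM in KO_PBS. This was a 4.79-fold rise (log2FC 2.26, SE 0.55, edgeR adjusted P = 0.0173), and the KO_PBS samples differed widely among themselves. Ccn2, the matricellular growth factor CTGF, was 15.2, 16.3, 15.1 and 18.8 CPM in WT_PBS and 71.1, 51.8, 27.8 and 24.0 CPM in KO_PBS (log2FC 1.42, SE 0.38, edgeR adjusted P = 0.0249). The highest KO_PBS sample for Ccn2 was replicate 1 and that for Ankrd1 was replicate 4.

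Gadd45a, a stress and DNA damage response gene, rose from 17.7 ± 3.74 to 35.2 ± 4.38 CPM (SD, n = 4), or 0.99 on the log2 scale (SE 0.17, edgeR adjusted P = 0.0011). It overlaps E230016M11Rik on the other strand. F3, which encodes tissue factor, rose from 2.05 ± 0.559 to 3.70 ± 0.970 CPM (log2FC 0.85, edgeR adjusted P = 0.0237). Ccdc80, a matrix protein gene, rose by a log2FC of 0.78 (edgeR adjusted P = 0.0375), and Axl, a receptor tyrosine kinase, by 0.54 (edgeR adjusted P = 0.0458), with overlapping samples for Axl. Several of the 6 are also known in fibroblasts and in inflamed tissue. Of 8 fibroblast markers 4 were called higher in the same comparison, with sums of 1066 to 1399.7 CPM in WT_PBS and 1359.9 to 2365 CPM in KO_PBS, and 7 of 8 macrophage markers were higher. Their part in these values was not tested. The count of 6 fell to 1 (Gadd45a) without WT_PBS replicate 2, to 2 without WT_PBS replicate 3 or KO_PBS replicates 1 or 4, and to 3 without WT_PBS replicates 1 or 4. Without the filter on low counts it was 3.

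In KO_ASO against KO_PBS, which uses the same KO_PBS samples, 0 of the 21 output genes were called by edgeR, beside 3.64% of all genes, and 10 had an unadjusted P under 0.05, beside 17.7% of all genes. DESeq2 called 3 (Axl, Gadd45a and Ccdc80) and limma-voom 2 (Gadd45a and Ccdc80). With the replicate number as a block, edgeR's calls included Gadd45a (adjusted P = 0.0189), Ccdc80 (adjusted P = 0.0104) and Axl (adjusted P = 0.0452). With library totals only, edgeR's calls included Gadd45a (adjusted P = 0.0280) and Axl (adjusted P = 0.0490). The median log2FC was -0.10, against 0.01 for all genes. Gadd45a stood at 19.7, 26.8, 22.5 and 26.5 CPM in KO_ASO and at 33.0, 34.7, 41.5 and 31.6 CPM in KO_PBS, with no overlap (log2FC -0.56, SE 0.16, edgeR adjusted P = 0.0687). Axl had a log2FC of -0.55 (edgeR adjusted P = 0.0810), Ccdc80 one of -0.72 (edgeR adjusted P = 0.0989) and Ankrd1 one of -0.89 (SE 0.53, edgeR adjusted P = 0.423). Without KO_ASO replicate 4 edgeR called Axl and Ccdc80, and 1 gene was called without each of WT_PBS replicate 1 (Gadd45a), WT_ASO replicate 2 (Ccdc80), KO_PBS replicate 2 (Axl), KO_PBS replicate 3 (Asap1) and KO_ASO replicate 3 (Amotl2). In WT_ASO against WT_PBS 0 of the 21 were called by edgeR, DESeq2 or limma, beside 0.00668% of all genes, and 1, Gadd45a, had an unadjusted P under 0.05, beside 6.45%. There Gadd45a stood at 20.4, 31.6, 28.6 and 23.0 CPM in WT_ASO and at 12.2, 18.5, 20.7 and 19.4 CPM in WT_PBS, or 0.55 on the log2 scale (SE 0.17, edgeR adjusted P = 0.673). The effect of ASO1 on Gadd45a differed between the genotypes by -1.11 on the log2 scale in edgeR (adjusted P = 0.0437), the 1 output gene called for that difference. This call lies near the threshold, and whether it holds in the refits was not examined.

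**Figure D3:**
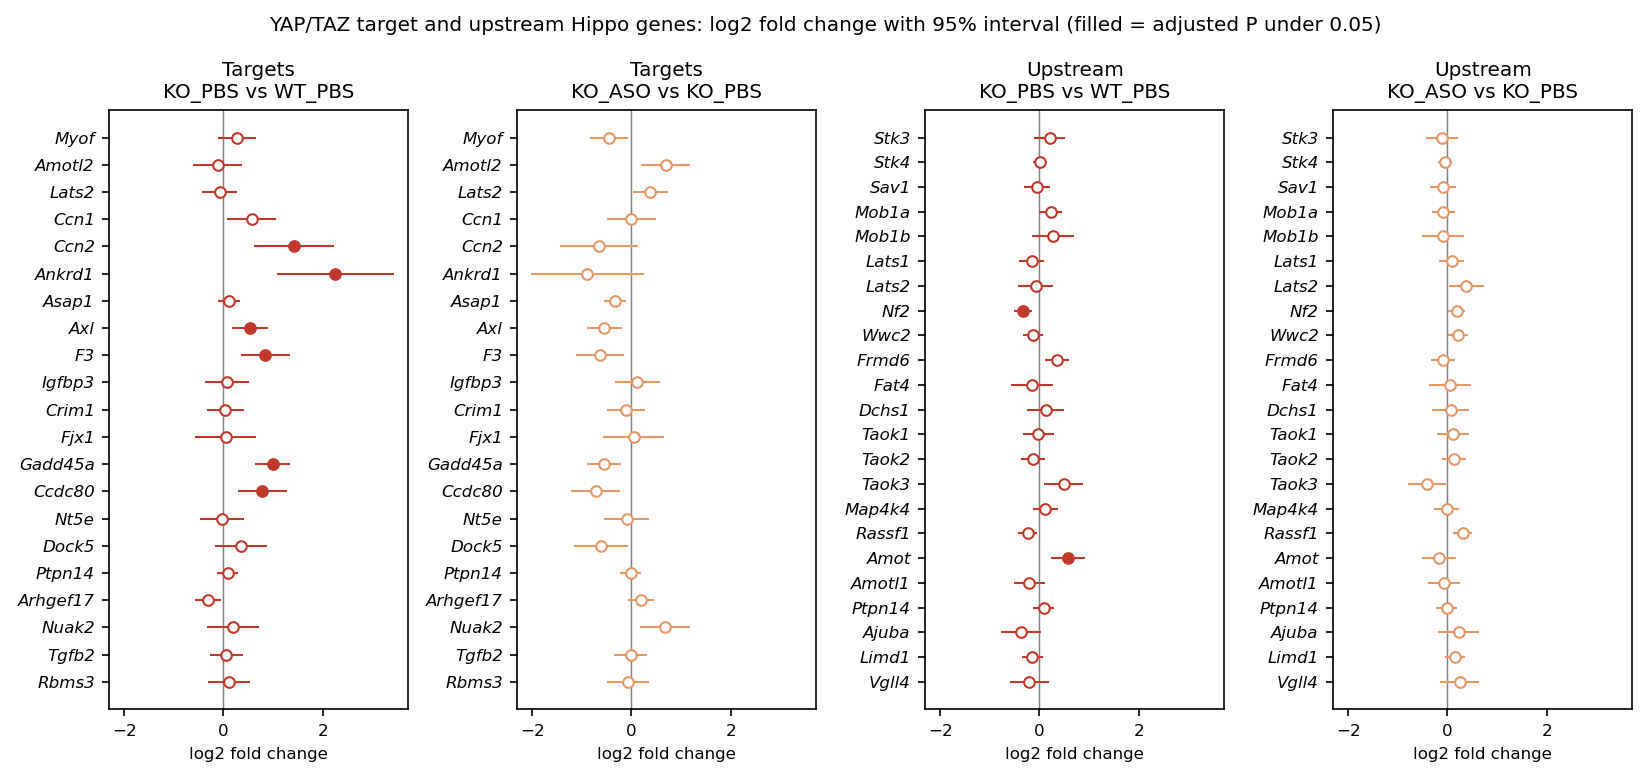
log2FC (x axis) with 95% intervals for the tested output genes of YAP and TAZ (left panels) and the tested upstream Hippo genes (right panels) in KO_PBS against WT_PBS and KO_ASO against KO_PBS, with filled circles for edgeR adjusted P under 0.05. In the untreated knockout 6 output genes are filled, led by Ankrd1 at 2.26, with Amot and Nf2 among the upstream genes, and no circle is filled after ASO1.

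Of 24 genes of the kinase cascade and its regulators, 23 were tested (all but Wwc1), and 1 was called higher and 1 lower in KO_PBS against WT_PBS, beside 7.43% and 5.12% of all genes, with a median log2FC of -0.06. Amot, which encodes the angiomotin related to AMOTL2, rose from 128 ± 14.9 to 192 ± 45.9 CPM (SD, n = 4), or 0.58 on the log2 scale (SE 0.16, edgeR adjusted P = 0.0296). Nf2, which encodes merlin, an activator of the cascade, fell from 132 ± 3.07 to 105 ± 7.04 CPM (SD, n = 4), or -0.33 on the log2 scale (SE 0.08, edgeR adjusted P = 0.0169). With library totals alone Nf2 was at -0.18 and did not pass (edgeR adjusted P = 0.139). Neither gene passed without KO_PBS replicate 1 or without KO_PBS replicate 4, where edgeR's adjusted P values were 0.0841 and 0.0851 for Amot and 0.0764 and 0.0536 for Nf2. Amot was also lost without WT_PBS replicates 1, 2 or 3 (log2FC 0.51 to 0.60). Genes of the core kinases, such as Stk3, Stk4, Lats1 and Lats2, were not called. Lats2 and Ptpn14 stand in the list of output genes too. In KO_ASO against KO_PBS 0 of 23 were called by edgeR, beside 3.64% of all genes, and 5 had an unadjusted P under 0.05, beside 17.7% of all genes, with DESeq2 calling 1, Rassf1. In WT_ASO against WT_PBS 0 were called by edgeR, DESeq2 or limma, beside 0.00668% of all genes, and 0 had an unadjusted P under 0.05, beside 6.45%.

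Of 12 genes of the Cas family and of focal adhesions, the partners of Nedd9, all were tested. In KO_PBS against WT_PBS 1 was called higher and 2 lower, beside 7.43% and 5.12% of all genes, with a median log2FC of 0.11. Aurka, the mitotic kinase that NEDD9 can activate, fell from 6.35 ± 1.33 to 3.13 ± 0.399 CPM (SD, n = 4), or -1.02 on the log2 scale (SE 0.24, edgeR adjusted P = 0.0121). Ptk2, the gene of focal adhesion kinase, fell by 0.29 on the log2 scale (edgeR adjusted P = 0.0408), and Src, a kinase that phosphorylates Cas proteins, rose by 0.67 (edgeR adjusted P = 0.0442). Aurka passed in each fit that left out 1 sample. The calls of Ptk2 and Src did not, and both had their highest adjusted P without KO_PBS replicate 1, at 0.153 and 0.192 in edgeR, with log2FC of -0.23 and 0.46. With the compared groups fitted alone only Aurka passed, and with library totals alone Ptk2 did not (log2FC -0.14, edgeR adjusted P = 0.393). In KO_ASO against KO_PBS 1 was called, beside 3.64% of all genes. This was Ptk2b, the focal adhesion kinase homologue also known in macrophages, at 1.103, 0.963, 1.12 and 2.10 CPM in KO_PBS and 0.516, 0.735, 0.796 and 0.592 CPM in KO_ASO (log2FC -1.01, edgeR adjusted P = 0.0458). This call held in the fits without WT_ASO replicates 2, 3 or 4 or KO_PBS replicates 2 or 3 and was lost when any other sample was left out. In WT_ASO against WT_PBS 0 of 12 were called by edgeR, DESeq2 or limma, beside 0.00668% of all genes, and 1 had an unadjusted P under 0.05, beside 6.45%.

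The 7 marker lists place these values in the tissue. The macrophage and fibroblast sums were highest in KO_PBS, while the endothelial sum of KO_PBS, 333 to 441 CPM, lay within that of WT_PBS, 338 to 479 CPM, apart from its lowest sample, and 0 of 7 endothelial markers were called by edgeR, with 1 at an unadjusted P under 0.05. Of the 6 pericyte and smooth muscle markers 1 was called higher and 1 lower, of the 6 Schwann cell markers 0 (also 0 at an unadjusted P under 0.05), and of the 8 myofibre markers 2 lower, in KO_PBS against WT_PBS. The myofibre sum was 101578 to 124207 CPM in KO_PBS and 139410 to 179932 CPM in WT_PBS. After ASO1 the knockout myofibre sum was 125615 to 148275 CPM, and the fibroblast sum spread from 556 to 1865 CPM with 1 of 8 markers called lower than in KO_PBS. Fibroblast sums also spread in WT_ASO, from 474 to 2004 CPM.

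**Figure D4:**
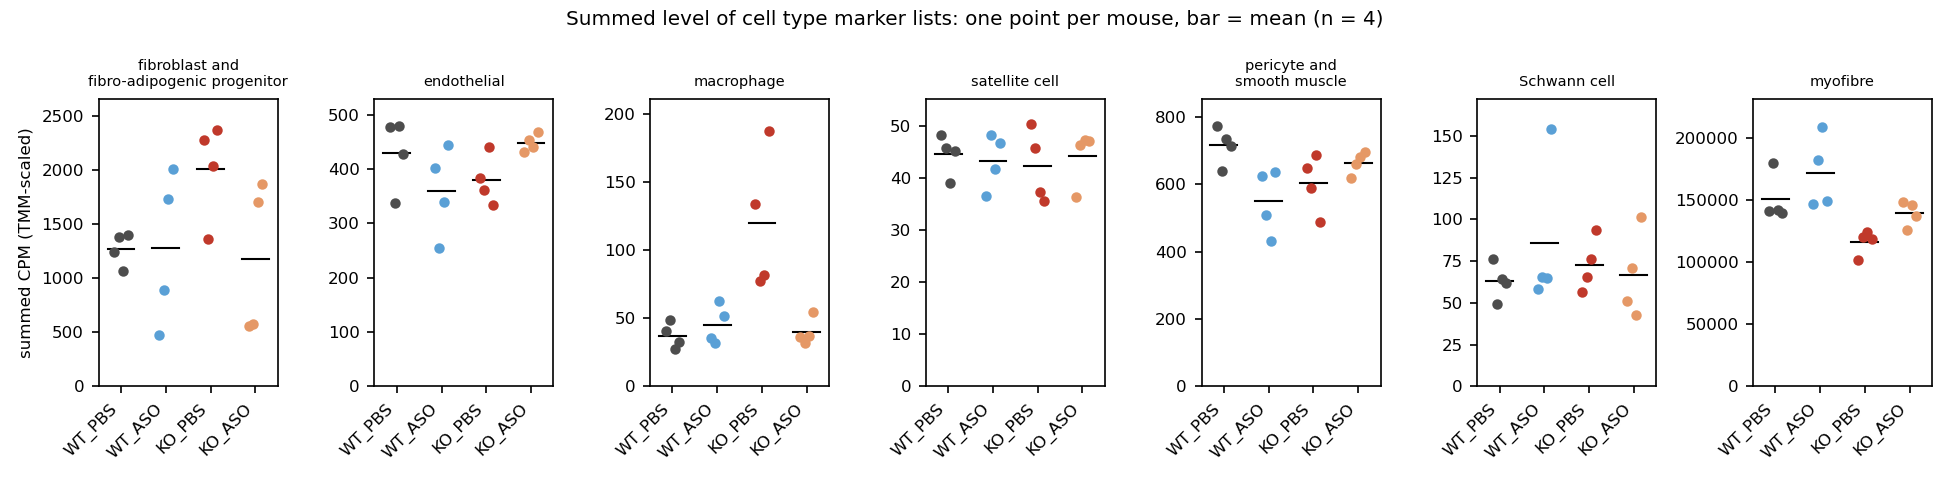
Summed CPM of each cell type marker list (y axis, TMM scale), 1 point per sample and a bar at the group mean (n = 4 per group). The macrophage panel shows all 4 KO_PBS samples above the other groups, at 77.1 to 187 CPM. The fibroblast panel shows WT_ASO and KO_ASO samples spread from 474 to 2004 CPM.

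The genes whose pattern across the 16 samples was most like that of the singled-out members were ranked by the Pearson correlation of log2 CPM. For Wwtr1 these were F2r (r = 0.918), Msn (0.898), Krcc1 (0.894), Itpripl2 (0.893) and Cerk (0.892). F2r, the gene of the thrombin receptor, had group means of 7.04, 6.32, 12.4 and 10.1 CPM in WT_PBS, WT_ASO, KO_PBS and KO_ASO. For Nedd9 they were Icam2 (0.911), Elk3 (0.909), Gng11 (0.906), Mgll (0.905) and Tspan2 (0.900). Icam2, the gene of an adhesion molecule, had group means of 6.84, 5.59, 7.86 and 8.79 CPM in the same order. After the group means were taken out, the correlation was 0.863 for F2r with Wwtr1 and 0.912 for Icam2 with Nedd9. Wwtr1 and Nedd9 correlated with each other at 0.818, and at 0.662 without the group means. The 16 points share 4 groups and their libraries' depth, so these correlations describe likeness only.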

How the data were processed

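TRI Reagent was used to extract the tibialis anterior RNA of the 16 samples, from male mice, and TruSeq Stranded mRNA libraries were sequenced. The file deposited by the authors holds unnormalized counts for each Ensembl gene and sample. GRCm38 (mm10) and the tools cutadapt 1.10, STAR 2.5.3a, Bowtie2 2.2.8 and HTSeq 0.6.1p1 are listed in the submitters' processing notes without their roles. The annotation release and the strand setting were not given in the sources used here. Without a known strand setting, reads of genes that overlap on opposite strands cannot be told apart. All 29730 identifiers matched GENCODE M21.

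Groups came from the labels. Genes were filtered with filterByExpr by group (14960 kept, 14770 removed), scaled by TMM and fitted over all 16 samples with the robust quasi-likelihood model of edgeR 4.0.16 (R 4.3.3). P values were adjusted by Benjamini-Hochberg over all genes within a comparison, with a threshold of 0.05. The interaction was the effect of ASO1 in the knockout minus that in wild type. The common biological coefficient of variation was 18.7%. Log2 CPM used a prior count of 2. The script was tested on simulated data. Alternatives were DESeq2 1.42.0, limma 3.58.1 (voom with quality weights), DESeq2 size factors in edgeR, library totals only, no filter, the replicate number as a block, the compared groups only and leaving out each sample.

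The members and gene lists were chosen with earlier results of these data known, the lists from general knowledge of the pathway. All members, Bin1 and Dnm2, the genes of a pathway list called in KO_PBS against WT_PBS (at most 8 a list), and the 5 genes most like Wwtr1 or Nedd9 were named. Calls among members were counted over 8, without Wwtr1 and Nedd9, where 10 had been planned. Ptk2b, Rassf1, Asap1, Lats2 and Sdc4 were named after their values were seen. The labels do not state that samples are separate mice, which was assumed, so P values measure the spread between these samples. Samples of a group differed by a mean chi-square of at least 21.7 per gene, so none was treated as a repeat deposit.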

Additional observations from a re-analysis of the deposited data

Results flagged for a closer look

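Tead4 in WT_ASO replicate 3 stood at 13.8 CPM, away from the other 3 WT_ASO samples at 5.53 to 6.74 CPM. The gap to the nearest sample was 0.854 of the range of the group, above Dixon's 95% critical value for 4 samples. With 40 sets of 4 samples examined, about 1 in 20 would be expected to stand apart by chance. The summed macrophage markers of that sample were 62.2 CPM, the highest of WT_ASO, and their part was not tested. Without this sample the log2FC of Tead4 in WT_ASO against WT_PBS was -0.27 in place of 0.13.

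The effect of ASO1 on Gadd45a differed between the genotypes by -1.11 on the log2 scale (edgeR interaction, adjusted P = 0.0437), with a log2FC of -0.56 in the knockout and 0.55 in wild type. This call lies near the threshold, and whether it holds in the refits was not examined. Over all genes 86 were called for the interaction, against 23 without WT_PBS replicate 4 and 102 without KO_ASO replicate 4. Gadd45a overlaps E230016M11Rik on the other strand.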

How the results depend on the processing

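Across 96 values of single genes, 625 of the 662 refits other than leaving out a sample kept direction and side of the threshold, 11 reversed, 13 became called, 11 lost their call and 2 values without a test moved. Of the 1536 refits that left out a sample, 1424 stayed the same, 41 reversed, 65 lost their call and 6 became called. The replicate numbers were not taken to pair the samples, since the labels name nothing they share and 11 of 24 same-numbered pairs had a correlation of deviations over 0.1 (range -0.0777 to 0.435), although 14 of 16 samples correlated best with their own number. With the replicate block 0 members were called in KO_ASO against KO_PBS (Tead4 edgeR adjusted P = 0.0503) and 4 upstream genes in KO_PBS against WT_PBS. In KO_ASO against KO_PBS the block gave 1 upstream gene (Lats2) and 4 output genes. Lats2 stands in both lists and is counted in both. The log2FC turned to 0.0045 for Tead3 in KO_ASO against KO_PBS and to -0.011 for Amot in WT_ASO against WT_PBS. The block moved the calls over all genes from 11 to 44 in KO_ASO against WT_ASO.

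Counts of members called leave out Wwtr1 and Nedd9, which carry no test. Library totals only called 2 of the 8 (Yap1 and Tead4) in KO_PBS against WT_PBS. DESeq2 called 1 upstream and 3 output genes in KO_ASO against KO_PBS, where limma called 2 output genes, library totals only 3 and the compared groups alone 1. Without the filter, more genes were tested and 0 members and 0 Cas genes were called in KO_ASO against KO_PBS and 3 output genes in KO_PBS against WT_PBS. Cas family calls in KO_PBS against WT_PBS were 5 with library totals only and 1 with the compared groups alone, which also gave 0 in KO_ASO against KO_PBS. For KO_ASO against WT_ASO over all genes, DESeq2 called 422 and limma 2, against 11, and for KO_ASO against KO_PBS DESeq2 called 1056 and the compared groups alone 300, against 544. Fits that left out 1 sample called 208 in KO_ASO against KO_PBS without KO_PBS replicate 1, up to 831 without KO_ASO replicate 4.

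Library totals only turned the log2FC in KO_PBS against WT_PBS of Tead1 (0.070), Tead3 (0.065) and Amotl2 (0.041), and in WT_ASO against WT_PBS of Tead2 (-0.017), Tead3 (-0.026), Nf2 (-0.027) and Amot (-0.035). Amot there was -0.064 by limma and -0.0039 without the filter. None of these passed the threshold, and the cause was not tested.

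Leaving out each sample gave 0 to 1 of the 8 members called in KO_ASO against KO_PBS. In KO_PBS against WT_PBS output genes called ran from 1 to 6, upstream genes from 0 to 3 and Cas genes from 1 to 3, and in KO_ASO against KO_PBS output genes ran from 0 to 2 and Cas genes from 0 to 1. The log2FC of some single genes changed sign. In KO_ASO against KO_PBS these ranged from -0.086 to 0.046 for Yap1, -0.14 to 0.024 for Wwtr1 and -0.080 to 0.060 for Tead3. In KO_PBS against WT_PBS they ranged from -0.16 to 0.014 for Tead3 and -0.028 to 0.12 for Nedd9. In WT_ASO against WT_PBS they ranged from -0.13 to 0.31 for Tead2, -0.028 to 0.13 for Tead3, -0.27 to 0.37 for Tead4, -0.020 to 0.22 for Vgll2, -0.047 to 0.43 for Vgll3, -0.012 to 0.063 for Nf2, -0.16 to 0.068 for Amot and -0.030 to 0.28 for Ccn2. In KO_ASO they ranged from -0.14 to 0.0090 for Tead3 and -0.054 to 0.30 for Vgll3 against WT_PBS, and from -0.25 to 0.11 for Vgll3 against WT_ASO. The interaction ranged from -0.00098 to 0.13 for Yap1, -0.13 to 0.046 for Tead3 and -0.069 to 0.31 for Vgll2.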
